A study of Mus musculus with 21 samples.

Results

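The 33 genes described here encode proteins of epithelial cell junctions: 10 claudins, the other membrane proteins and scaffolds of the tight junction, polarity proteins at the apical border, desmosome proteins, and a few adhesion molecules found beside them. They were taken as the rows of the deposited gene count table whose Ensembl identifiers carry the listed symbols, and all 33 were found among its 48440 genes and passed the filter on low counts. The study changed the level of Esrp2-as, a noncoding transcript antisense to the epithelial splicing regulator gene Esrp2, in 3 mouse lines and sequenced their RNA. LNA gapmers, antisense oligonucleotides that direct RNase H to their target, were used against it in 2 replicates of M6 (knockdown), which are set against 2 replicates labelled empty vector control. It was overexpressed in 3 replicates of M27H4, against 3 empty vector controls, and in 2 replicates of 3T3-L1, against 2 empty vector controls. M6 and M27H4 come from mammary tumours of the C3(1)SV40 TAg mouse, so both carry that transgene, and 3T3-L1 is a preadipocyte line. All were grown in the same medium. The labels call the replicates biological but do not say that they were separate cultures, so p-values measure only the spread between these samples.

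Tight junctions seal the space between epithelial cells. Their strands are built from claudins together with occludin and its relatives, and scaffold proteins such as ZO-1 tie them to actin. Desmosomes join neighbouring cells through desmogleins and desmocollins, which plakoglobin, plakophilins and desmoplakin couple to keratin filaments. Fibroblasts and their precursors do not form these epithelial seals, and mammary tumour cells can keep or lose them.

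The 21 columns of the table, at 34892461 to 138313667 counts each, were summed to 14 replicates, because the labels mark some columns as technical replicates. The summed columns of a M27H4 or 3T3-L1 replicate carry 1 library code in their names, while those of M6 replicate 2 carry 2 codes in each group, so each M6 replicate 2 value joins 2 codes that the labels call technical replicates. Levels are CPM, counts scaled to the effective library size. Esrp2-as (1810019D21Rik) stood at 0.527 and 0.851 CPM in M6 knockdown, against 2.96 and 2.42 in M6 control. It stood at 61.2, 65.9 and 15.9 CPM in M27H4 overexpression, against 0.731, 1.25 and 0.889 in M27H4 control, and at 45.8 and 35.5 in 3T3-L1 overexpression, against 0.250 and 0.355 in 3T3-L1 control. By the edgeR test described below both overexpressions were called (adjusted p = 0.00152 and 0.00258) and the knockdown was not (adjusted p = 0.363). Esrp2-as overlaps Esrp2, so reads of the overlap may not be told apart. The lines carried the markers of their labelled origin to different degrees. Summed over 9 luminal epithelial markers, levels ran from 251 to 359 CPM in the M27H4 replicates, from 21.3 to 27.1 in 3T3-L1 and from 2701 to 4096 in M6; Krt8, a keratin of simple epithelia, averaged 16.3 CPM in M27H4 control, 4.99 in 3T3-L1 control and 889 in M6 control. Gata3, a luminal transcription factor of the same list, was the 1 of the 9 with a higher mean in M27H4 control than in M6 control, at 109 CPM in M27H4 control, 3.30 in 3T3-L1 control and 18.7 in M6 control, and with Cdh1 at 134 it made up most of the M27H4 sum. Over 10 fibroblast and preadipocyte markers they ran from 793 to 1100 CPM in M27H4, with Pdgfra at 866 CPM in its controls, from 6093 to 7651 in 3T3-L1 and from 39.1 to 109 in M6.

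One feature of the sequencing bears on every low value below. The column names end in a number, taken here as the lane, though the names do not call it that. M27H4 replicate 1 (overexpression and control) was the only pair sequenced in a lane that held no M6 sample. That lane held nothing else, so in M27H4 its values cannot be told apart from those of replicate 1 as a replicate. All other M27H4 columns and all 3T3-L1 columns came from lanes that also held M6. Epcam, which encodes the epithelial cell adhesion molecule EpCAM, showed the difference. In the lane without M6 it had 5 counts (0.143 CPM of the column total) in M27H4 overexpression and 3 counts (0.0496 CPM) in M27H4 control, while the 6 M27H4 columns of the shared lanes held 4.54 to 10.4 CPM. Cldn4, Dsg2, Cldn8 and Cldn2 had 0 counts in both libraries of the lane without M6. There 16 of the 33 genes were under 0.5 CPM in both libraries, and 12 of these 16 exceeded 10 CPM in M6 control. In the shared lanes the CPM of these 12 genes had a median of 0.887 to 1.46% of the same lane's M6 column in M27H4 and of 0.339 to 0.717% in 3T3-L1. The first percentile of that ratio was also taken over all genes with at least 50 CPM in the M6 column. It was 0.881 to 1.48% in M27H4 and 0.339 to 0.667% in 3T3-L1. Those of the 12 with at least 50 CPM are among these genes, so the percentile is not an independent gauge of their level. The lowest ratio of any such gene was 0 in each column. Whether reads passed between libraries of a lane was not tested. For M27H4 the lane without M6 gives each value free of M6 in the same lane. For 3T3-L1 there is no such lane, and values near 1% of M6 or less cannot be told apart from a level of 0.

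**Figure D1:**
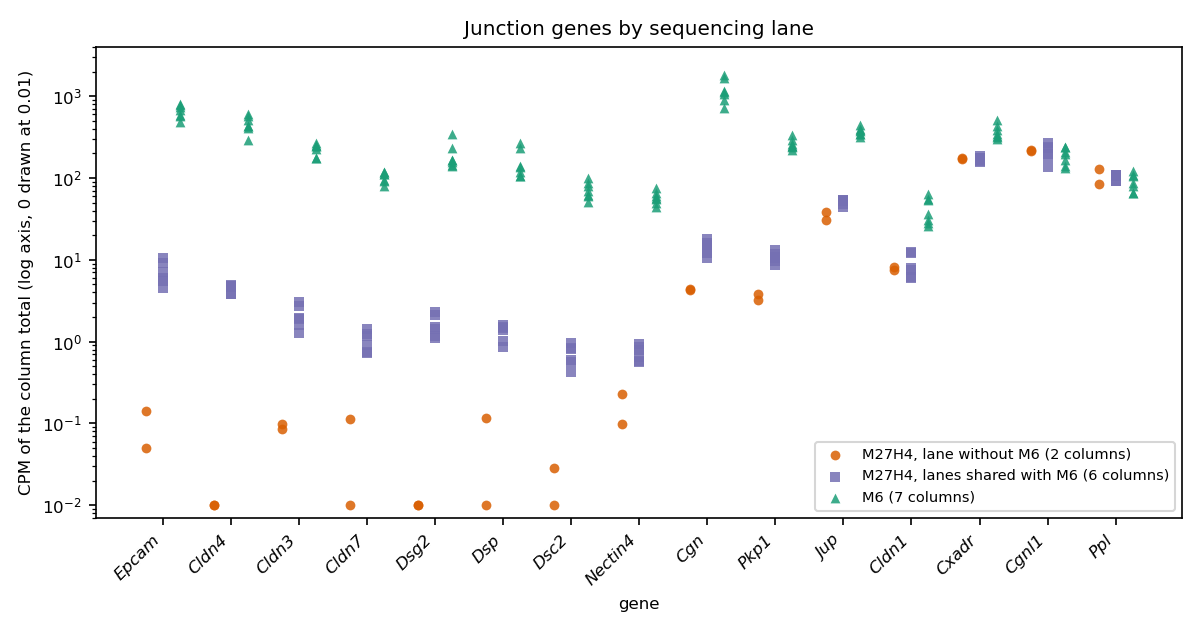
CPM of the column total (log axis, 0 drawn at 0.01) of 15 junction genes in M27H4 columns of the lane without M6 (circles), M27H4 columns of lanes shared with M6 (squares) and M6 columns (triangles). Epcam, the claudins 3, 4 and 7 and the desmosome genes Dsg2, Dsp and Dsc2 sit far lower in the lane without M6, whereas the values of the lane without M6 lie within the range of the shared lanes for Cxadr and Cgnl1 and on either side of it for Ppl.

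In M6 control all of the 33 genes but Cldn2, Cldn6, Cldn8 and Cldn15 exceeded 5 CPM in both replicates. Compared per kilobase of annotated exon, because longer genes collect more counts, the highest levels in M6 control were those of Epcam at 333 ± 68.8 CPM per kb, of Cgn, the tight junction scaffold cingulin, at 217 ± 92.7, of Cldn4 at 200 ± 74.9 and of Cldn3 at 173 ± 60.5 (SD, n = 2). Cgn, Cldn4 and Cldn3 did not differ beyond their spread. Among the other claudins, Cldn7 stood at 54.7 ± 13.4 CPM per kb in M6 control, Cldn12 at 18.8 ± 3.09, Cldn23 at 11.3 ± 1.74 and Cldn1 at 6.52 ± 0.551. Cldn8 (0.811) and Cldn15 (0.338) were low, and Cldn2 (0.0402) and Cldn6 (0.0179) were close to 0. Of the plakophilins, Pkp1 led at 57.8 ± 6.03 CPM per kb in M6 control, ahead of Pkp3 at 20.7 ± 1.38 and Pkp2 at 7.44 ± 0.841. The order differed in the other lines. In M27H4 control Pkp2 (3.65 ± 0.529) and Pkp3 (3.45 ± 1.10) did not differ beyond their spread and Pkp1 was at 1.73 ± 0.953 (SD, n = 3). In 3T3-L1 control Pkp2 led at 2.43 ± 0.272 CPM per kb, ahead of Pkp3 at 0.947 ± 0.285 and Pkp1 at 0.460 ± 0.00275 (SD, n = 2). Cldn12 was the highest of all 33 in 3T3-L1 control, at 31.1 ± 3.74 CPM per kb.

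**Figure D2:**
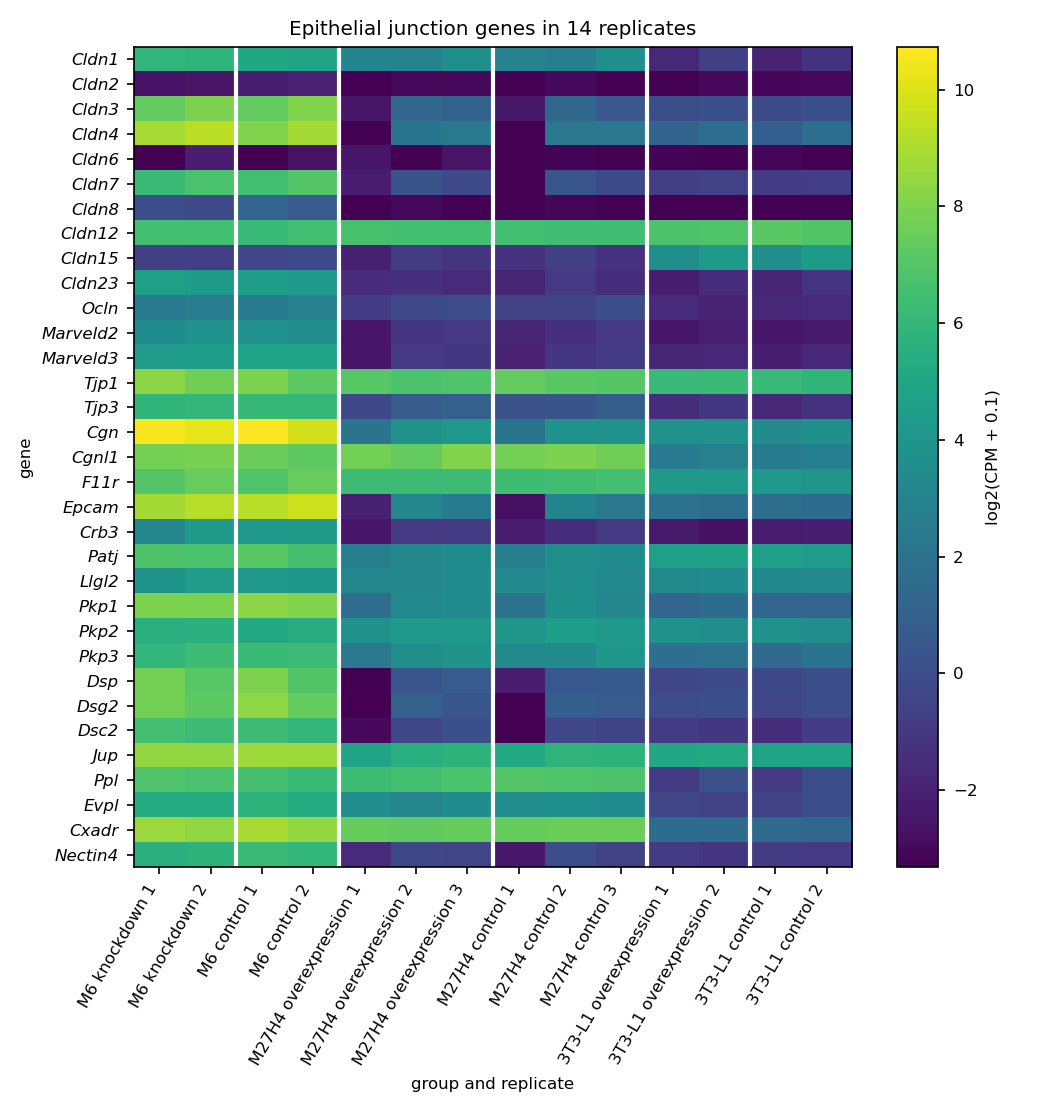
Levels of the 33 genes, as log2(CPM + 0.1), in the 14 replicates, with groups separated by white lines. The M6 columns are high for most genes, the M27H4 columns stay high for Cgnl1, Cxadr, F11r, Ppl, Tjp1 and Cldn12, and M27H4 replicate 1, from the lane without M6, is lower than replicates 2 and 3 for Epcam, Cldn3, Cldn4, Cldn7, Dsg2, Dsc2 and Dsp.

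The lines were compared through their control replicates, in a fit of all 6 groups with edgeR's quasi-likelihood test, and genes were called at an adjusted p under 0.05 (Benjamini-Hochberg over the 21237 genes tested). In M27H4 control against M6 control 26 of the 33 genes were lower and 0 higher, beside 15% of all tested genes called lower and 15.2% higher, 30.2% in all. The median log2 fold change of the 33 was -3.54, beside 0.02 over all genes. As bulk RNA was measured, fewer cells of a type and less RNA per cell cannot be told apart.

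The claudins divided. Cldn4, a claudin of many glandular epithelia, had 0, 4.65 and 4.82 CPM in M27H4 control, against 267 and 459 in M6 control. The 0 is the replicate of the lane without M6, where a floor of 3 counts in that library puts Cldn4 at least 7440-fold lower than M6 control. Its call ended without M27H4 control replicate 2 (adjusted p = 0.0501 with edgeR) or replicate 3 (0.0508), and in a fit of the compared groups alone (0.0841). The call held with DESeq2, with limma voom and without M27H4 control replicate 1.

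Cldn7, another claudin of glandular epithelia, had 0, 1.28 and 0.750 CPM in M27H4 control, against 88.2 and 125 in M6 control, and was at least 2186-fold lower on the same floor. Cldn8 had 0, 0.0157 and 0 CPM in M27H4 control, against 2.26 and 1.56 in M6 control, at least 39.2-fold lower. Cldn3, the neighbour of Cldn4 in the genome, had 0.0975, 2.50 and 1.32 CPM in M27H4 control, against 164 and 272 in M6 control. All 3 of these M27H4 groups lay below the M6 controls without overlap, as the groups did not overlap for 30 of the 33 genes, beside 47.7% of all tested genes. Cldn1, a claudin of tight barriers, had 7.46, 6.45 and 12.5 CPM in M27H4 control, against 33.5 and 29.7 in M6 control, a log2 fold change of -1.84 (95% interval -2.69 to -0.99, adjusted p = 0.00273 with edgeR). It kept this level in the lane without M6. Cldn12, a claudin of many tissues, had 88.5 ± 3.90 CPM in M27H4 control (SD, n = 3) and 79.3 ± 13.0 in M6 control (SD, n = 2), log2 fold change 0.16 (95% interval -0.18 to 0.50), and was not called. Among the membrane partners of the claudins, occludin (Ocln) had 0.585, 0.639 and 0.938 CPM in M27H4 control, against 5.67 and 6.8 in M6 control. Tricellulin (Marveld2) had 0.179, 0.267 and 0.408 CPM in M27H4 control, against 13.6 and 12.7 in M6 control.

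The desmosomal cadherins and desmoplakin were near 0 in M27H4. Dsg2, a desmoglein, had 0, 1.77 and 1.57 CPM in M27H4 control, against 319 and 172 in M6 control, and in the lane without M6 it was at least 5039-fold lower. Dsc2, a desmocollin, had 0, 0.687 and 0.628 CPM in M27H4 control, against 79.6 and 60.5 in M6 control, and was at least 1437-fold lower on the same floor. Dsp, the desmoplakin that anchors keratin, had 0.114, 1.35 and 1.46 CPM in M27H4 control, against 247 and 120 in M6 control. Its 7 counts in the lane without M6 put M6 control 1612-fold higher, with a counting interval of 782 to 4008. The other plaque proteins differed widely. Pkp1, a plakophilin, had 3.79, 13.3 and 8.96 CPM in M27H4 control, against 312 and 269 in M6 control, and its 233 counts in the lane without M6 put M6 control 76.6-fold higher, with a counting interval of 67.4 to 87.5. The plakophilins Pkp2 and Pkp3 were lower by less, with log2 fold changes of -1.03 and -2.58. Jup (plakoglobin, shared with adherens junctions) had 37.9, 56.5 and 54.1 CPM in M27H4 control, against 407 and 410 in M6 control. Its log2 fold change was -3.04 (95% interval -3.56 to -2.53, adjusted p = 7.2e-07 with edgeR). Ppl, which encodes the plakin periplakin, had 125, 116 and 112 CPM in M27H4 control, against 96.5 and 73.5 in M6 control (log2 fold change 0.47, 95% interval -0.22 to 1.17), and was not called. The gene of its partner envoplakin, Evpl, was lower, at 11.9 ± 0.899 CPM in M27H4 control (SD, n = 3) and 47.9 ± 8.76 in M6 control (SD, n = 2).

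Epcam had 0.0488, 8.14 and 4.73 CPM in M27H4 control, against 624 and 837 in M6 control. With the 3 counts of the lane without M6, M6 control was 14985-fold higher, with a counting interval of 5128 to 72663. In a fit of the compared groups alone Epcam was not called (edgeR adjusted p = 0.0623). It kept its call with DESeq2, with limma voom and with each M27H4 control replicate left out in turn. Nectin4, a nectin adhesion receptor, had 0.0975, 0.901 and 0.579 CPM in M27H4 control, against 70.1 and 63.8 in M6 control, log2 fold change -6.91. Cxadr, the coxsackievirus and adenovirus receptor of tight junctions, had 169, 187 and 193 CPM in M27H4 control, against 476 and 356 in M6 control, and F11r (JAM-A) had 81, 84.5 and 93.8 against 117 and 179. Both were called lower, with log2 fold changes of -1.18 (95% interval -1.53 to -0.84) and -0.78 (95% interval -1.19 to -0.36). Leaving out M6 control replicate 2 put the F11r difference at -0.42 with an edgeR adjusted p of 0.16. Of the scaffolds, Tjp1 (ZO-1) at 144 ± 15.3 CPM in M27H4 control and 200 ± 75.7 in M6 control, and Cgnl1 (paracingulin) at 223 ± 23.4 and 172 ± 27, were not called (SD, n = 3 and 2). Without M6 control replicate 2 Tjp1 was called, at -0.80 with an edgeR adjusted p of 0.0245. Cgn had 4.34, 14 and 14.5 CPM in M27H4 control, against 1699.9 and 910 in M6 control, log2 fold change -6.89, and Tjp3 (ZO-3) had a log2 fold change of -5.69. Crb3, an apical polarity protein, and Patj, which binds the Crumbs complex, fell by 6.10 and 3.54 on the log2 scale, and Llgl2, a basolateral polarity protein, by 0.67. The Llgl2 call ended without M27H4 control replicate 1 or 3, or without either M6 control replicate. A further fit held the lane without M6 as the only M27H4 control library, which is then assumed to vary like the other groups. There F11r had a log2 fold change of -0.875 and Llgl2 of -0.797, and neither kept its call.

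In 3T3-L1 control against M6 control 29 of the 33 genes were lower and 2 higher, beside 18.9% of all tested genes called lower and 20.5% higher, 39.4% in all, and the median log2 fold change was -6.97, or -6.74 with Cldn8 at its bound, beside 0.05 over all genes. Cldn8 had 0 counts in both 3T3-L1 control libraries, which at a floor of 3 counts in the shallower library was at least 78.8-fold lower than M6 control. Of the 28 genes with at least 10 CPM in M6, 13 were under 1% of the same-lane M6 value in all 3T3-L1 columns, so only an upper limit of about that share is measured for them. Among these, Epcam had 3.24 and 2.90 CPM in 3T3-L1 control, against 624 and 837 in M6 control, Dsp 0.719 and 0.921 against 247 and 120, and Dsg2 0.705 and 0.896 against 319 and 172. Cldn3 had 0.878 and 0.969 CPM in 3T3-L1 control, against 164 and 272 in M6 control, Cldn7 0.469 and 0.509 against 88.2 and 125, and Nectin4 0.441 and 0.404 against 70.1 and 63.8. Tjp3 had 0.191 and 0.323 CPM in 3T3-L1 control, against 67.0 and 65.8 in M6 control, and Marveld3, a relative of occludin, had 0.127 and 0.194 against 28.7 and 28.5. The groups were far apart for each of these genes, yet the wide spread shared by all 6 groups left some calls close to the threshold. The M27H4 libraries in that fit differed by lane. Epcam, Cldn4 and Dsg2 kept their calls in a fit of the compared groups alone. Without M27H4 replicates 2 and 3 their log2 fold changes were -7.92, -7.17 and -8.31. Epcam and Cldn4 were not called without either 3T3-L1 control replicate (adjusted p = 0.0956 to 0.146 with edgeR), Cldn4 not without M6 control replicate 2 (0.0579) and Dsg2 not without 3T3-L1 control replicate 1 (0.0504).

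Cldn15 and Cldn12 were the genes called higher. Cldn15, which forms sodium-permeable pores in the intestine, had 12 and 20.4 CPM in 3T3-L1 control, against 0.683 and 0.753 in M6 control, log2 fold change 4.49 (95% interval 3.43 to 5.54, edgeR adjusted p = 8.82e-06). It had 12.1 and 18.8 CPM in 3T3-L1 overexpression and under 1 CPM in all M6 and M27H4 replicates. Cldn12 had 143 and 120 CPM in 3T3-L1 control, against 70.1 and 88.6 in M6 control (log2 fold change 0.73, edgeR adjusted p = 0.00415). Without 3T3-L1 control replicate 1 its adjusted p was 0.0518, and in a fit of the compared groups alone 0.0737.

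Other genes were expressed in 3T3-L1 well above 1% of M6. Tjp1 had 72.3 and 59.6 CPM in 3T3-L1 control, Jup 28.3 and 29.5, Patj 24.8 and 21.3, F11r 18 and 17.6, Pkp2 14 and 12 and Llgl2 9.28 and 9.89. Their ratios to M6 in the same lane ran from 6.85% (the lowest of Jup) to 64.3% (the highest of Llgl2). Cgn, at 12.2 CPM, stood at 1.18 to 2.10% of M6 in the same lane, in M27H4 at 1.19 to 2.22%, and M27H4 control in the lane without M6 held 4.42 CPM, 301-fold below M6 control (counting interval 267 to 340). In 3T3-L1 control against M27H4 control 14 of the 33 were lower and 3 higher, Cldn15, Patj and Cldn12, beside 17.8% of all tested genes lower and 18.9% higher, 36.6% in all. Ppl, Cxadr, Cgnl1 and Cldn1 had log2 fold changes of -7.47, -6.11, -5.24 and -5.24. In 3T3-L1 Ppl, Cxadr, Cldn1 and Tjp3 were near 1% of M6 in the same lane or less, so their levels there are upper limits. Their differences from M27H4 control may be larger than given. Ppl had 0.423 and 0.921 CPM in 3T3-L1 control, against 125, 116 and 112 in M27H4 control, and Cgnl1 had 5.28 and 6.50 against 218, 248 and 202. Cxadr had 2.75 and 2.54 CPM in 3T3-L1 control, against 169, 187 and 193 in M27H4 control, and Cldn1 had 0.155 and 0.323 against 7.46, 6.45 and 12.5. For these 4 genes the M27H4 control of the lane without M6 also lay above both 3T3-L1 controls, which came from other lanes. Evpl had 0.555 and 0.945 CPM in 3T3-L1 control, against 11.7, 12.8 and 11.1 in M27H4 control, and F11r had 18 and 17.6 against 81, 84.5 and 93.8. Pkp1 had 2.32 and 2.30 CPM in 3T3-L1 control, against 3.79, 13.3 and 8.96 in M27H4 control, Pkp3 had 2.69 and 4.15 against 9.57, 10.9 and 17.0, and Tjp3 had 0.191 and 0.323 against 1.04, 1.11 and 1.69.

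Of the 14 lower genes 9 were called without 3T3-L1 control replicate 1, where Jup, Marveld2, Pkp1, Pkp2 and Pkp3 lost their calls, and 9 without 3T3-L1 control replicate 2, where Jup, Marveld2, Pkp1, Pkp2 and Tjp1 did. Jup was not called without M27H4 control replicate 2 or 3, Pkp2 not without M27H4 control replicate 2, and Marveld2 not without M27H4 control replicate 3. Cldn12 was not called without 3T3-L1 control replicate 1 (edgeR adjusted p = 0.105). Without M27H4 replicates 2 and 3, a setting chosen after the data were seen, M27H4 control is 1 library, from the lane without M6, assumed to vary like the other groups, and 3T3-L1 comes from lanes shared with M6. In that fit Epcam was higher in 3T3-L1, with a log2 fold change of 5.95, beside -0.505 with all replicates. Cldn4 and Dsg2 were also higher. Epcam had 3 counts in that M27H4 control library, and Cldn4 and Dsg2 had 0. In 3T3-L1 all of them were under 1% of M6 in the same lane, which cannot be told apart from a level of 0. The size of their change is therefore not measured. Pkp1 moved from -1.92 to -0.71, Marveld2 from -1.64 to -0.95, Jup from -0.78 to -0.39 and Pkp2 from -0.59 to -0.43. Cldn12 moved from 0.57 to 0.50. Pkp1, Marveld2, Jup, Pkp2 and Cldn12 were called with all replicates and lost their calls in that fit. Pkp1 in 3T3-L1 stood at 0.895 to 1.18% of M6 in the same lane.

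**Figure D3:**
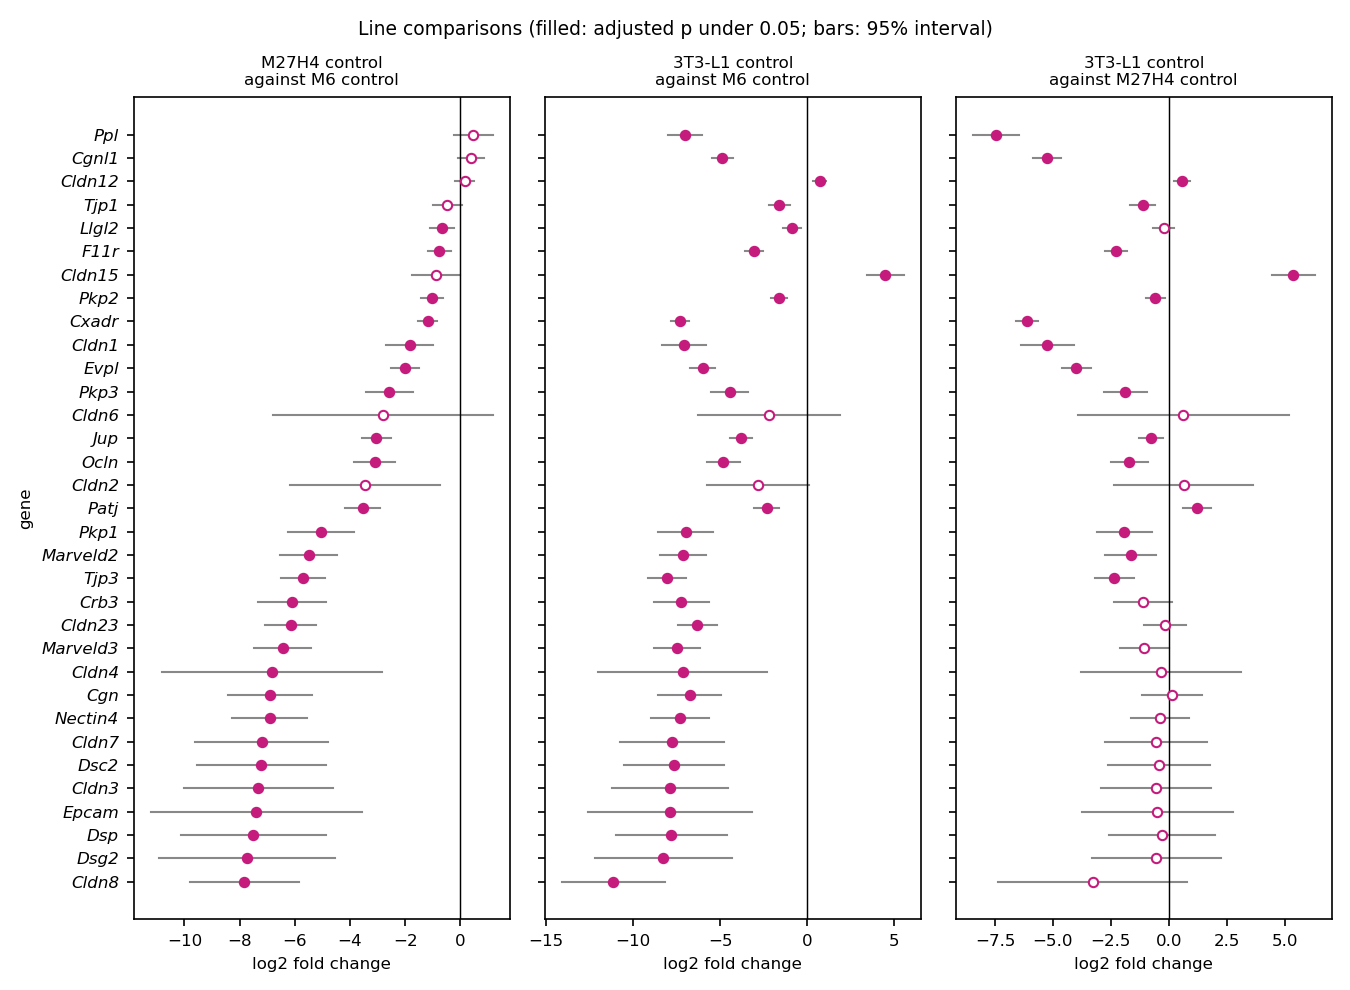
Log2 fold changes with 95% intervals in the 3 line comparisons, filled where the adjusted p was under 0.05, with genes ordered by the M27H4 control against M6 control value. Ppl, Cgnl1, Cldn12 and Tjp1 sit near 0 in the comparison of the tumour lines, and Cldn15 stands apart on the right in both comparisons of 3T3-L1.

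The knockdown of Esrp2-as in M6 left no junction gene past the threshold. Of the 33 genes 0 were called higher or lower, beside 0.137% of all tested genes called in either direction, 0.122% higher and 0.0141% lower. The smallest edgeR adjusted p was 0.848 and 0 had an unadjusted p under 0.05. DESeq2 and limma voom also called 0 of the 33. The median log2 fold change was -0.08, beside -0.03 over all genes, with 13 positive and 20 negative. The groups did not overlap for 15 of the 33, beside 26.4% of all tested genes. With the replicate number as a block within each line, 6 of the 33 had an unadjusted p under 0.05, beside 12.1% of all tested genes. With the columns of the lane that held only M6 samples, where each replicate is 1 column, 0 were called. In counts simulated from these data, the edgeR test with all 14 replicates recovered 9% of 2-fold and 87% of 4-fold changes in this comparison. The changed genes were drawn at random from all tested genes above a low level, not from the 33. A 2-fold change in such genes would thus mostly go uncalled. In genes with wide intervals, as given below for Epcam and Cldn4, a 4-fold change could go uncalled too.

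The largest positive value was that of Cldn1, which had 59.9 and 56.5 CPM in M6 knockdown, against 33.5 and 29.7 in M6 control. The groups did not overlap. Its log2 fold change was 0.88 (95% interval -0.06 to 1.82, edgeR adjusted p = 0.848). With the replicate number as a block within each line the estimate was again 0.88, with an edgeR adjusted p of 0.0235, and Cldn1 was then the 1 gene of the 33 called. Over all settings its adjusted p ran from 0.0235 to 1. In the lane that held only M6 samples the columns held 64.2 and 55.5 CPM of the column total in M6 knockdown, against 36.2 and 30.3 in M6 control. Leaving out each replicate in turn gave 0.81 to 1.04, without a call.

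Epcam, Nectin4 and Cldn4 were chosen for description after their values were seen. Epcam had 455 and 602 CPM in M6 knockdown, against 624 and 837 in M6 control, and Nectin4 had 46.0 and 53.4 against 70.1 and 63.8. Cldn4 had 473 and 614 in M6 knockdown, against 267 and 459 in M6 control. These 3 genes are among the 15 whose groups did not overlap. With all 14 replicates in the fit, whose M27H4 libraries differ by lane, the intervals were wide. The log2 fold change of Epcam was -0.47 (95% interval -3.95 to 3.02) and that of Cldn4 was 0.58 (-3.11 to 4.28). Without M27H4 replicates 2 and 3 Epcam was at -0.45 (-0.94 to 0.05), Cldn4 at 0.61 (-0.23 to 1.45) and Nectin4 at -0.41 (-0.88 to 0.06), and 0 were called. Cldn8 had 0.928 and 0.874 CPM in M6 knockdown, against 2.26 and 1.56 in M6 control (log2 fold change -1.08, 95% interval -2.63 to 0.48). Cgnl1 had 223 and 232 CPM in M6 knockdown, against 191 and 153 in M6 control, and Tjp1 had 316 and 204 against 253 and 146. None of these intervals left out 0 without the block. With the replicate block the 95% intervals of Cldn4 (0.28 to 0.97), Tjp1 (0.10 to 0.69), Epcam (-0.80 to -0.13), Dsg2 (-0.75 to -0.02) and Ppl (0.04 to 0.70) did, and none of these 5 genes was called (edgeR adjusted p = 0.112 to 0.375). Other genes lay between -0.49 (Cldn15) and 0.36 (Ppl), apart from Cldn2 and Cldn6, which were under 0.2 CPM in all M6 libraries. In M6 knockdown replicate 2 the 2 columns gave Cldn12 at 30.7 CPM of the column total in the lane with only M6 and 125 in the lane shared with M27H4 and 3T3-L1, although they are marked as technical replicates under different library codes, while knockdown replicate 1 had 101. The log2 fold change of Cldn12 was -0.32 in the lane with only M6 and 0.21 over all columns.

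Replicates of M6 differed by gene length in both groups. The log2 ratio of replicate 1 over replicate 2 for Dsg2, with 8.268 kb of exon, was 0.54 in knockdown and 0.89 in control, and for Cldn3, with 1.259 kb, it was -0.58 in knockdown and -0.73 in control. Over all genes with more than 5 kb the median ratio was 0.03 in knockdown and 0.20 in control, and for those under 2 kb it was -0.43 and -0.73. The part of this in the values of the long and short junction genes was not tested. Summed luminal markers ran from 3000 to 4096 CPM in M6 knockdown and from 2701 to 3663 in M6 control, and basal markers from 820 to 1596 in M6 knockdown and from 1356 to 2187 in M6 control. The sums of 3 other lists did not overlap. Fibroblast and preadipocyte markers ran from 39.1 to 58.4 CPM in M6 knockdown and from 72.3 to 109 in M6 control, with Postn, a matrix protein, at 6.71 in M6 knockdown and 39.7 in M6 control. Immune markers ran from 2.45 to 3.11 CPM in M6 knockdown and from 1.10 to 2.36 in M6 control, with Adgre1 and Cd3e at 0 in both groups. Markers of keratinised epidermis ran from 1.05 to 1.38 CPM in M6 knockdown and from 1.61 to 1.63 in M6 control. The part of these markers in the values of the junction genes was not tested either.

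**Figure D4:**
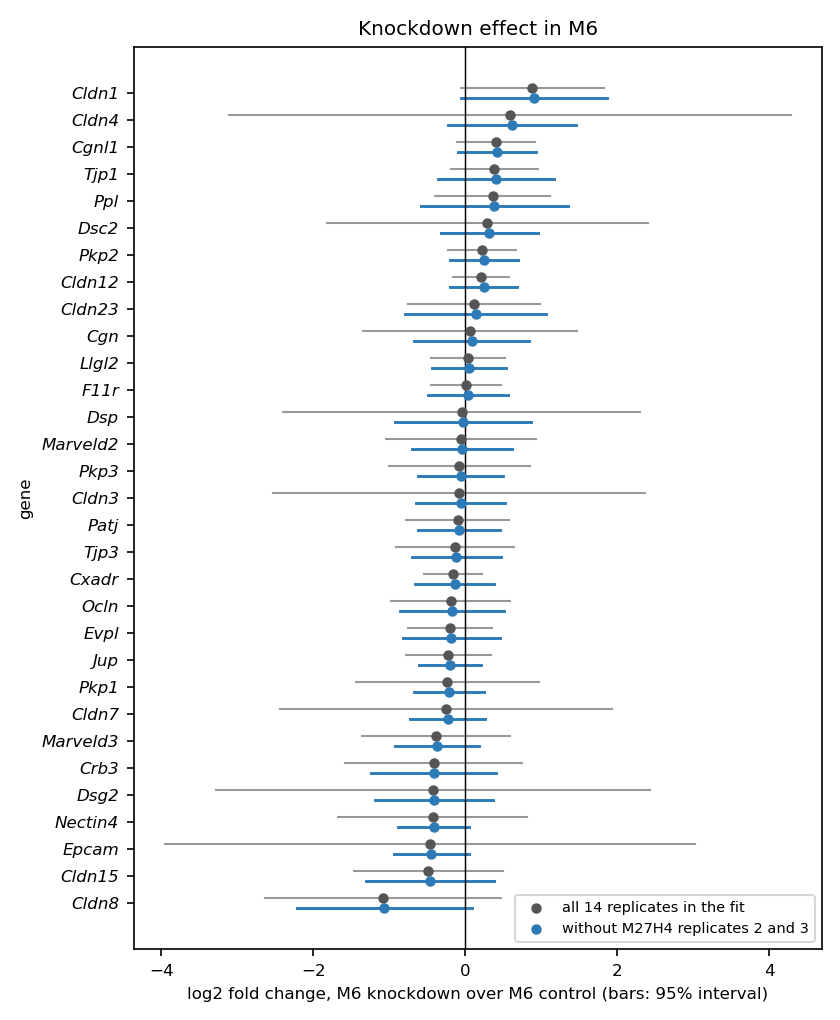
Log2 fold change of 31 of the 33 genes in M6 knockdown over M6 control with 95% intervals (Cldn2 and Cldn6, under 0.2 CPM, are not drawn), from the fit with all 14 replicates (grey) and from the fit without M27H4 replicates 2 and 3 (blue). The estimates lie close together in both fits, all intervals cross 0, and the grey intervals of Epcam, Cldn4, Cldn3, Dsp and Dsg2 are the widest.

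Overexpression of Esrp2-as called 0 of the 33 genes in M27H4, beside 0.00942% of all tested genes, and 0 in 3T3-L1, beside 0.00471%. In both comparisons 0 of the 33 had an unadjusted p under 0.05, and DESeq2 and limma voom called 0. The median log2 fold change was -0.02 in M27H4, beside -0.03 over all genes, and 0.10 in 3T3-L1, beside 0.00 over all genes. In M27H4, Tjp1 had 134, 108 and 116 CPM in overexpression, against 161, 142 and 130 in control, log2 fold change -0.27 (95% interval -0.73 to 0.19), and Ppl 83.1, 92.0 and 108 against 125, 116 and 112, log2 fold change -0.32 (95% interval -0.94 to 0.29). Pkp2 had 14.7, 18.5 and 18.6 CPM in M27H4 overexpression, against 17.5, 22.8 and 18.3 in M27H4 control (log2 fold change -0.18), and Cldn6 stayed under 0.1 CPM in all M27H4 replicates. The groups did not overlap for 2 of the 33 in M27H4, Ppl and F11r, beside 5.1% of all tested genes, and for 12 of the 33 in 3T3-L1, beside 23.2%. With the replicate block 2 of the 33 had an unadjusted p under 0.05 in each line, beside 4.05% of all tested genes in M27H4 and 1.71% in 3T3-L1. In 3T3-L1, Jup had 33.7 and 36.9 CPM in overexpression, against 28.3 and 29.5 in control, log2 fold change 0.29 (95% interval -0.27 to 0.85), and Cldn12 had 112 and 117 against 143 and 120, log2 fold change -0.20 (95% interval -0.57 to 0.17). Cldn1 and Cldn23 stayed under 0.6 CPM in all 3T3-L1 replicates. Summed fibroblast and preadipocyte markers ran from 6701 to 7651 CPM in 3T3-L1 overexpression and from 6093 to 6450 in 3T3-L1 control, and their part in these values was not tested. The difference between the effects in 3T3-L1 and M27H4, and that between the knockdown effect in M6 and the overexpression effect in M27H4, was called for 0 of the 33, beside 0.00471% and 0.0283% of all tested genes (0.0188% higher for that of M6), with 0 at an unadjusted p under 0.05.

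Other junction genes also differed between the lines. Of 63 others that the gene table holds, 52 were tested. In M27H4 control against M6 control 17 of the 52 were lower and 5 higher, beside 15% lower and 15.2% higher among all tested genes. In 3T3-L1 control against M6 control 24 of the 52 were lower and 8 higher, beside 18.9% lower and 20.5% higher among all tested genes. The perturbations called 0 of the 52 by edgeR, with 5 at an unadjusted p under 0.05 in M6 knockdown, 0 in M27H4 overexpression and 1 in 3T3-L1 overexpression, beside 6.27, 1.69 and 0.946% of all tested genes. Cdh1, which encodes E-cadherin, the core adhesion protein of adherens junctions, had 134 ± 29.9 CPM in M27H4 control (SD, n = 3) and 611 ± 196 in M6 control (SD, n = 2), log2 fold change -2.18. In 3T3-L1 control it had 2.36 ± 0.515 (SD, n = 2). Dsg3, a desmoglein, was at 0.378 CPM in M27H4 control and 89.2 in M6 control. Jam3, a junctional adhesion molecule, was at 49.3 CPM in 3T3-L1 control and 0.0957 in M6 control.

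Of 21 regulators of epithelial genes, 12 were lower and 4 higher in M27H4 control, and 11 lower and 6 higher in 3T3-L1 control, each against M6 control. The same shares of all tested genes, 15% lower and 15.2% higher for M27H4 and 18.9% lower and 20.5% higher for 3T3-L1, stand beside these counts, and the counts of higher regulators are near them. The repressor gene Zeb2 had 136 ± 20.01 CPM in M27H4 control (SD, n = 3) and 4.39 ± 1.11 in M6 control (SD, n = 2), log2 fold change 4.96. Grhl2, an activator of junction genes, was at 0.805 CPM in M27H4 control and 129 in M6 control. In M6 knockdown against M6 control Zeb1, a repressor of epithelial genes, was the 1 regulator called, beside 0.122% of all tested genes called higher. It had 5.53 ± 1.19 CPM in M6 knockdown and 1.66 ± 0.325 in M6 control (SD, n = 2 each), log2 fold change 1.72 (95% interval 1.21 to 2.22, edgeR adjusted p = 0.0125). The call ended without M6 knockdown replicate 1 (adjusted p = 0.106), without M6 control replicate 1 (0.128), without M27H4 replicates 2 and 3 (0.0757) and in a fit of the compared groups alone (0.488, all with edgeR). Cdh1, a known target of ZEB1, had 423 ± 84.2 CPM in M6 knockdown and 611 ± 196 in M6 control (SD, n = 2 each), log2 fold change -0.53 (95% interval -1.25 to 0.18), and was not called.

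Promoters of the set were searched for CAGGTG, the E-box letters that ZEB and SNAI repressors are known to bind. RefSeq windows of 250 bases before the start of a gene on GRCm38.p6 matched 21 of the 33 genes, with 30 windows, some overlapping within a gene, and CAGGTG on either strand was in 11 of them (36.7%), beside 17.2% of all 32851 windows. ACCGGTT, letters of the grainyhead site, on either strand was in 0 of the 30, beside 0.831% of all windows. The base composition differed too, with a median of 11.5 CG pairs in the 30 windows, beside 6 over all windows. Its part in these shares was not tested. E-box letters stood in 5 of 11 matched genes that were under 0.5 CPM in the lane without M6 and in 4 of the 10 other matched genes. The windows of Epcam and Cldn4, which hold these letters and had 3 and 0 counts in M27H4 control of the lane without M6, are shown beside those of Dsp, which had 7 counts there, and Cgnl1, at 222 CPM there, whose windows hold none. Capitals mark CAGGTG or its reverse complement. Each run reads 5′ to 3′ on the strand of its gene and its position is given before it.
Epcam (chr17:87635729-87635978, plus strand): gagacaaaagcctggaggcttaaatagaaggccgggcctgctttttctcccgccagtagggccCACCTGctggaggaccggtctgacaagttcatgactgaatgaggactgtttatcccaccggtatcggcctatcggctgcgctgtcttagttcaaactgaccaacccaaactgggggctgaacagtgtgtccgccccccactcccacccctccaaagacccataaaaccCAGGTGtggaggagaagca
Cldn4 (chr5:134946935-134947184, minus strand): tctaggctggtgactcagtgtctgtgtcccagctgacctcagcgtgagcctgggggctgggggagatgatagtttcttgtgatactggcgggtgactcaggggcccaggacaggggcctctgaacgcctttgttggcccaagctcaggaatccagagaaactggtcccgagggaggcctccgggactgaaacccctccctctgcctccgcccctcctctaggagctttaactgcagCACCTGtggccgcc
Dsp (chr13:38151044-38151293, plus strand): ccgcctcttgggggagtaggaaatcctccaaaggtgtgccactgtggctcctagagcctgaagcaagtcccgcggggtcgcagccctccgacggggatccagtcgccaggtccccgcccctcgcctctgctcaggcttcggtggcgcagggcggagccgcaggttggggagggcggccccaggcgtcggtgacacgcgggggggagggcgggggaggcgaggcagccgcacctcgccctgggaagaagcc
Cgnl1 (chr9:71771603-71771852, minus strand): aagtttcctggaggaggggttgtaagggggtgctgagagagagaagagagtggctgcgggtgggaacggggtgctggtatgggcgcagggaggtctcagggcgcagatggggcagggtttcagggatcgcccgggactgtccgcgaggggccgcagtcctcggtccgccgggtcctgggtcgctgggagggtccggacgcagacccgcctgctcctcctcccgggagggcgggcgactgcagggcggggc

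The transcript with the most counts differed between lines for Tjp1, and for Nectin4 at its low 3T3-L1 level. In Tjp1 the exon of 240 bases that encodes the alpha region of ZO-1 was used to different degrees. It is exon 20 of 28 in transcript Tjp1-202 on GRCm38, chr7:65314093-65314332 on the minus strand, and is in Tjp1-202 and not in Tjp1-201 or Tjp1-207. It is printed in capitals, with 15 flanking bases of the transcript in lower case on each side.
Tjp1: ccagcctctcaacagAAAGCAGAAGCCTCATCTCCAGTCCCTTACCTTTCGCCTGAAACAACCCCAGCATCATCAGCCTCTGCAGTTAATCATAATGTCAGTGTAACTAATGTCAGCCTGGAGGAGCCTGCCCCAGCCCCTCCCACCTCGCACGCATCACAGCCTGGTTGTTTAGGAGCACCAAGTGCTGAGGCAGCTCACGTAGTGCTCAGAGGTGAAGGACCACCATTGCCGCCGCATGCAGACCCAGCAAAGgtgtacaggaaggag
The transcript with it held 46.0 and 33.1% of the counts of these 3 transcripts in M6 knockdown, against 54.9 and 47.6% in M6 control. It held 22.7, 21.2 and 55.3% in M27H4 overexpression, against 48.1, 29.5 and 44.7% in M27H4 control, and 14.4 and 16.5% in 3T3-L1 overexpression, against 20.3 and 13.9% in 3T3-L1 control. The 3T3-L1 replicates were below all M6 and M27H4 replicates. Single columns of the lines overlapped, with 1 column of 3T3-L1 control replicate 1 at 25.7% and 1 of M27H4 overexpression replicate 2 at 15.5%. The transcript counts are StringTie estimates, per the submitters' processing notes, and columns of the same replicate differed. The columns of M27H4 control replicate 2, which carry 1 library code, held 18.6 and 39.0%. Those of M6 knockdown replicate 2, which carry 2 codes, held 51.2 and 21.8%. Within a line the groups overlapped in M27H4 and 3T3-L1, and in M6 the separation was under the difference between columns of the same replicate. No test was made.

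**Figure D5:**
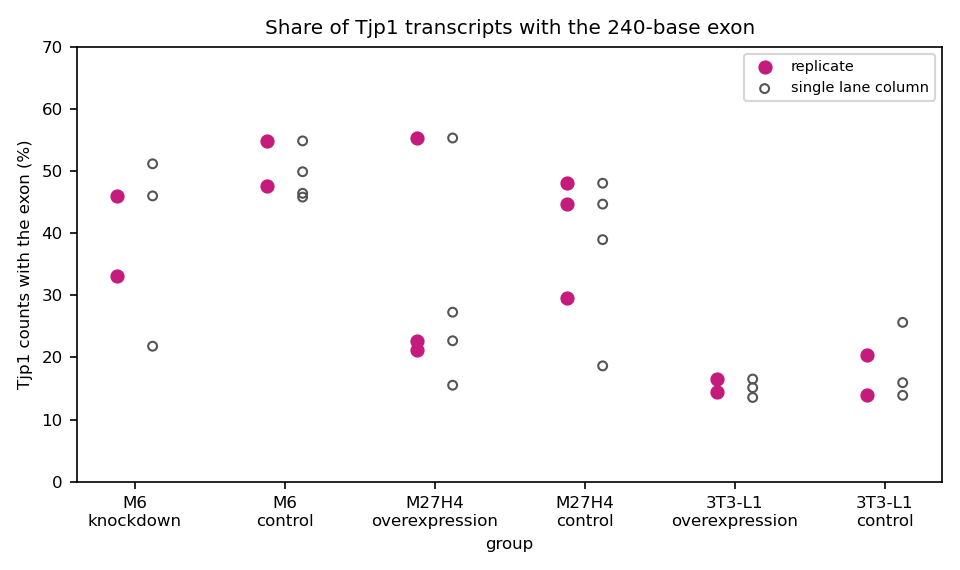
Percent of Tjp1 counts in the transcript with the exon of 240 bases, per replicate (filled) and per lane column (open), in the 6 groups. The 3T3-L1 replicates lie between 13.9 and 20.3%, below the M6 and M27H4 replicates. The spread between columns of a replicate reaches across the groups of a line, and single M27H4 columns lie within the range of 3T3-L1.

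The 33 genes lie on 14 chromosomes of GRCm38. Epcam (ENSMUSG00000045394) is at chr17:87635979-87651129 on the plus strand and Cldn4 (ENSMUSG00000047501) at chr5:134945119-134946934 on the minus strand. Cldn1 (ENSMUSG00000022512) is at chr16:26356642-26371841 and Cgnl1 (ENSMUSG00000032232) at chr9:71626509-71771602, both on the minus strand. Cldn3 and Cldn4 lie 39280 bp apart on chromosome 5, Ocln and Marveld2 43239 bp apart on chromosome 13, and F11r and Nectin4 48937 bp apart on chromosome 1. Neighbours did not always share a level: in the M27H4 control of the lane without M6 Nectin4 had 0.0975 CPM and F11r had 81. For 6 of the 33 (Cldn3, Tjp3, Crb3, Dsp, Dsg2 and Cxadr) exons overlap a gene on the opposite strand, and as the counting strand is not stated their values may include its reads.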

How the data were processed

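Total RNA from the 3 lines was depleted of ribosomal RNA and made into strand-specific libraries, per the labels' protocols. Per the submitters' processing notes, cutadapt, HISAT2, StringTie and edgeR were used with mm10 (GRCm38). Versions, the counting strand and the annotation release are not given in the sources used here. The deposited gene and transcript tables hold expected counts, estimated by StringTie, which were whole numbers as deposited. Among the columns of each deposited CPM table, 1 matched no sample and was not used. Of 48440 gene identifiers 48058 were named from the reference annotation of GRCm38.

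Columns labelled as technical replicates were summed, also where their library codes differ (M6 replicate 2), which gave 34892461 to 328493417 counts per replicate. Genes were filtered with filterByExpr, scaled by TMM and tested with edgeR 4.0.16 (robust quasi-likelihood, 6 groups, 8 residual degrees of freedom, Benjamini-Hochberg) in R 4.3.3. DESeq2 1.42.0, limma 3.58.1 voom, other scaling, filtering and sample sets were alternatives. The script was tested on simulated data. Intervals and floors on counts cover counting error only.

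The genes and lists were chosen with earlier results of these data known. Named were the called genes, with replicate values for up to 10 with the largest change at 1 CPM or more, or the 4 with the smallest p where fewer than 4 were called. Same-numbered replicates of M27H4 and of 3T3-L1 shared lanes, with the lane taken from the number in the column names. In M6 all replicates had a column in 1 lane, which therefore does not set the pairs apart. The further columns of replicate 2 came from different lanes in the 2 groups. Deviations from the group means correlated at 0.712 in M6, 0.182 to 0.518 in M27H4 and 0.48 in 3T3-L1, over 0.1 in every pair, so the numbers were taken to pair the replicates. In M27H4 the pairing was less clear, as overexpression replicate 3 correlated at 0.221 with control replicate 2, above the 0.182 of the pair numbered 2. The main tests did not use the pairing, and the replicate block was an alternative. With 2 replicates a group, the pairs of a line have the same correlation by construction.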

Additional observations from a re-analysis of the deposited data

How the results depend on the processing

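Of the counts of junction genes called higher or lower, 134 of 140 alternative values lay within 1.5 times the reported count. A count of 0 beside a reported 0 was taken as within this range. The reported count was 0 for all 3 perturbations and for genes higher in M27H4 control against M6 control, so the share overstates how stable the other counts were. The exceptions were these. With the replicate block within each line, 1 gene (Cldn1) was called higher in M6 knockdown against M6 control, in place of 0. The block changed no other call of the 33 in any comparison. In 3T3-L1 control against M6 control, 1 gene was called higher in a fit of the compared groups alone and 1 to 2 with each replicate left out. In 3T3-L1 control against M27H4 control, 11 were called higher without M27H4 replicates 2 and 3, an alternative chosen after seeing the data, and 9 to 15 were called lower with each replicate left out. Genes called lower ran from 23 to 27 in M27H4 control and from 26 to 30 in 3T3-L1 control, each against M6 control. The sign turned for Cldn1 in 3T3-L1 overexpression against 3T3-L1 control, at -0.27 without 3T3-L1 overexpression replicate 2 and 1.19 without replicate 1, at levels under 0.6 CPM. Where a cause is not given by the construction of an alternative, it was not tested.

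Counts over all genes moved more. In M6 knockdown against M6 control 29 genes were called, against 293 with the replicate block, 233 with DESeq2, 74 with voom, 64 without the filter, 0 in a fit of the compared groups, 12 without M27H4 replicates 2 and 3, and 6 to 60 with each replicate left out. In M27H4 overexpression against M27H4 control 2 were called, against 6 with DESeq2, 0 with voom and 1 with the block or the compared groups alone. In 3T3-L1 overexpression against 3T3-L1 control 1 was called, against 11 with DESeq2, 4 in the compared groups, 2 without the filter and 0 with the block. In M27H4 control against M6 control 6420 were called, against 4057 with only M27H4 control replicate 1 and 3804 without M27H4 replicates 2 and 3. In 3T3-L1 control against M27H4 control 7777 were called, against 5082 in that last setting. Where leaving out libraries left 1 in a group, it was assumed to vary like the other groups. Depth limits the lowest genes, since 3 counts were the floor in each library.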
